A study of Mus musculus with 7 samples.

Results

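Protein kinase C (PKC) is a family of serine and threonine kinases, and 8 of its genes were followed here by their symbols in a count table of 24419 genes. The genes were Prkca, Prkcb, Prkcd, Prkce, Prkch, Prkci, Prkcq and Prkcz, and they were chosen by symbol with their knockdown and wild-type read counts in these libraries already known. Values of that comparison are therefore given for the isoforms as a description, with no test. All 8 genes had a row, 7 had a count in any library and 6 passed the filter on low counts. The libraries came from LLC1, a mouse lung cancer cell line (Lewis lung carcinoma) grown in culture, with polyadenylated RNA sequenced in bulk. In 3 libraries Ddx54, a nucleolar DEAD-box RNA helicase, was knocked down with an shRNA, and 4 libraries were labelled wild type for it. The labels name neither the shRNA sequence, nor a control construct in the wild-type cells, nor whether the replicates were separate cultures. The p-values below measure only the spread between these libraries, which may be technical.

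Conventional PKC isoforms (cPKC) need calcium and the membrane lipid diacylglycerol for activity, isoforms of the nPKC class need diacylglycerol without calcium, and atypical isoforms (aPKC) need neither. Phospholipases C make the diacylglycerol, diacylglycerol kinases remove it, and phorbol esters imitate it, which is why these compounds activate the cPKC and nPKC isoforms. In tumour cells the family has been studied for its part in growth signalling, migration and cell polarity. Prkcb and Prkcq are best known from lymphocytes, where they act below antigen receptors.

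Sequence just upstream of the annotated start is shown for the 4 isoforms that carry most of the account below. Prkcb and Prkci were lower in knockdown, Prkca had overlapping levels in both groups, and Prkcd had a wide spread in wild type. The windows come from RefSeq on GRCm38.p6, begin 250 bases before the RefSeq start and end before the first GENCODE transcript start that lies inside the window. Each is written 5′ to 3′ on the strand of the gene, with capitals at each GC box (GGGCGG, or CCGCCC for the other strand), the short motif bound by Sp1-type factors. They lie at chr7:122288875-122289124 on the plus strand for Prkcb and chr3:30995521-30995746 on the plus strand for Prkci. For Prkca the window is chr11:108343929-108344138 and for Prkcd chr14:30626211-30626458, both on the minus strand. In GENCODE, 1 further Prkcb transcript starts 124 bases before its window.
Prkcb: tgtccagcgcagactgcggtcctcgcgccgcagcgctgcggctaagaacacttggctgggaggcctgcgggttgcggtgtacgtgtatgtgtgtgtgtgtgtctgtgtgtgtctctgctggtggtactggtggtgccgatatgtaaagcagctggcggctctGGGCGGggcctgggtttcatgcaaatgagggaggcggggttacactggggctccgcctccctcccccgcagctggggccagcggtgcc
Prkci: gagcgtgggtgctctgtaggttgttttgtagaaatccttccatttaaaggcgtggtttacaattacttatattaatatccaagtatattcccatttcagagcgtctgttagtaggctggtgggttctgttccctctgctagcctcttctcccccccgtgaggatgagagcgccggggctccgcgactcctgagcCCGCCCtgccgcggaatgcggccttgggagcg
Prkca: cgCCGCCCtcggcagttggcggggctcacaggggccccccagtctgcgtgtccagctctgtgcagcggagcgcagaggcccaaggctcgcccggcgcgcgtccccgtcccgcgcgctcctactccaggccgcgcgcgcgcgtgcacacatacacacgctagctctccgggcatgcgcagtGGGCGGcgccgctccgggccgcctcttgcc
Prkcd: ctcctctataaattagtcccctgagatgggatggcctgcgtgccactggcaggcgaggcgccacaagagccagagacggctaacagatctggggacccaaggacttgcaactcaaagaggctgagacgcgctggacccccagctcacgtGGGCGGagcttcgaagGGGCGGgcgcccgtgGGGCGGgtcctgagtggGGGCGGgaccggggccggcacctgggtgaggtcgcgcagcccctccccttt

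The Prkcb and Prkci stretches each hold 1 GC box, the Prkca stretch holds 2 and the Prkcd stretch holds 4. The promoter table covered 6 of the 8 isoforms with 9 windows of 250 bases. A GC box was in 7 of the 9 windows, against 32.7% of the 32851 windows of all genes, and 1 of the 7 belongs to Prkcq, which had no count in any library. The bases G and C made up 56.4 to 76.8% of these 7 windows, against a median of 52.4% over all windows. The part of this base content in the matches was not tested. The AP-1 motif TGANTCA was in none of the 9 windows, against 6.75% of all windows. The E-box CACGTG was in 1 window, that of Prkcd shown here, against 6.02% of all windows. The TATA box TATAAA and the CCAAT box CCAAT were in 1 window each, against 12.4% and 33.8% of all windows, and TGACG, part of the cyclic AMP response element, was in 2 windows, against 17.8%. Both strands were searched for each motif, and a match describes letters only.

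The libraries held 14987324 to 17702932 counts in knockdown and 15293346 to 18673395 in wild type. Ddx54 itself was at 45.9, 39.2 and 45.8 CPM (reads per 1000000 reads of tested genes, after scaling) in knockdown and at 80.4, 82.5, 78.6 and 83.2 CPM in wild type. Knockdown held 53.8% of the wild-type level (log2 fold change -0.90, SE 0.096, edgeR adjusted p = 6.55e-09), and every library matched its label. Rn45s, the ribosomal RNA precursor, took 7.96 to 9.07% of counts in knockdown and 10.7 to 12.5% in wild type, and its part in the results was not tested. Of 11594 tested genes, 29.4% passed an adjusted p of 0.05 (edgeR quasi-likelihood), 14.1% being higher and 15.3% lower in knockdown. Among the 6 isoforms in that fit 2 lay past the threshold, Prkcb and Prkci, both lower. Since the isoforms were chosen with this comparison known, their count is a description and nothing is read from it. The median log2 fold change was 0.001 over all tested genes. In bulk libraries, fewer cells with a transcript and less of it per cell cannot be told apart. For all tested genes the ranges of the groups did not overlap in 35.1% of cases, and for the isoforms in 2 of 6.

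Because Prkcb and Prkcq are also genes of blood cells, and Prkcb of neurons, markers of other cells were read in the same libraries. The 16 leukocyte markers summed to 3.77 to 4.88 CPM in knockdown and 2.67 to 6.86 CPM in wild type, overlapping ranges carried mainly by Cd68. Lck, a lymphocyte kinase, was at 0.12, 0 and 0.26 CPM in knockdown and at 0.44, 1.83, 0.98 and 0.65 CPM in wild type, lower in every knockdown library, as Prkcb was. Other members of the list did not share this. Cd68 overlapped, at 2.80 to 4.56 CPM in knockdown and 2.13 to 4.90 CPM in wild type. Lyz2 had reads in knockdown libraries 1 and 2 alone, at 0.24 and 0.05 CPM. Cd3e, Cd8a, Ms4a1 and Nkg7 were at 0 in every library, and Ptprc, the common leukocyte antigen, had reads in wild-type library 3 alone, at 0.13 CPM. The 7 neuronal markers summed to 2.15 to 3.80 CPM in knockdown and 4.28 to 8.29 CPM in wild type, ranges that did not overlap. Snap25 and Tubb3 were the main sources, and Gad1 was at 0. Snap25 was lower without overlap, at 0.72 to 1.36 CPM in knockdown and 1.53 to 3.26 CPM in wild type. Tubb3 overlapped, at 1.07 to 2.01 CPM in knockdown and 1.63 to 3.14 CPM in wild type. The 6 endothelial markers summed to 0.71 to 1.19 CPM in knockdown and 1.07 to 3.19 CPM in wild type, with Cdh5, Tek and Tie1 at 0. The part of these markers in the Prkcb difference was not tested. Of the markers of epithelium and lung alveoli, Krt8 and Krt18 were well expressed, whereas Epcam and Cdh1 stayed at or below 0.20 CPM and Nkx2-1 was at 0. The 6 epithelial markers together summed to 149 to 168 CPM in knockdown and 239 to 249 CPM in wild type. Most of this sum was Krt18, at 127 to 135 CPM in knockdown and 213 to 224 CPM in wild type. Krt8 overlapped, at 19.1 to 32.4 CPM in knockdown and 17.9 to 23.1 CPM in wild type. Krt19 was lower without overlap, at 0.65 to 1.69 CPM in knockdown and 3.66 to 4.69 CPM in wild type. The 6 alveolar markers summed to 4.88 to 7.11 CPM in knockdown and 4.82 to 8.29 CPM in wild type. Within that sum Hopx was lower without overlap, at 1.95 to 3.04 CPM in knockdown and 4.35 to 7.47 CPM in wild type, and Ager was higher without overlap, at 2.93 to 4.53 CPM in knockdown and 0.48 to 1.54 CPM in wild type.

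Prkcb encodes a conventional isoform that is spliced into a beta I and a beta II kinase, which counts per gene do not separate. It had 61, 83 and 59 reads in the knockdown libraries and 355, 257, 219 and 269 reads in the wild-type libraries. Scaled to library size, Prkcb was at 3.64, 4.50 and 3.84 CPM in knockdown and at 19.4, 17.5, 14.3 and 15.9 CPM in wild type. Every knockdown library lay far below every wild-type library, with no overlap. The mean was 3.99 ± 0.45 CPM in knockdown (SD, n = 3) and 16.8 ± 2.15 CPM in wild type (SD, n = 4), so that knockdown held 23.8% of the wild-type level. The log2 fold change of Prkcb was -2.07 (SE 0.22). The gene spans bases 122288751 to 122634402 of chromosome 7 on the plus strand (GRCm38, ENSMUSG00000052889.11), and no other annotated gene overlaps its exons.

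Prkca, the other conventional isoform among the 8, encodes the widely expressed alpha kinase, which phosphorylates membrane-bound substrates such as MARCKS. Its level was 89.0, 90.4 and 104 CPM in knockdown and 101, 96.6, 90.3 and 93.8 CPM in wild type. The groups overlapped almost completely, with a mean of 94.6 ± 8.51 CPM in knockdown (SD, n = 3) and 95.4 ± 4.45 CPM in wild type (SD, n = 4). The log2 fold change of Prkca was -0.01 (SE 0.083), and the gene lies at chr11:107933387-108343928 on the minus strand. Prkca shares exon sequence with Apoh on the opposite strand, but Apoh had only 24 reads over all knockdown libraries and 42 over all wild-type libraries.

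Among the nPKC isoforms, Prkcd (chr14:30595354-30626210, minus strand) encodes the delta kinase, known for roles in apoptosis and stress signalling. Prkcd was at 22.1, 24.5 and 18.2 CPM in knockdown and at 14.6, 16.0, 24.4 and 18.4 CPM in wild type. The ranges overlapped, with wild-type library 3 about as high as the highest knockdown library and wild-type library 4 above the lowest. The means were 21.6 ± 3.16 CPM in knockdown (SD, n = 3) and 18.3 ± 4.32 CPM in wild type (SD, n = 4), and the log2 fold change was 0.24 (SE 0.17). Prkce (chr17:86167785-86657919, plus strand) encodes the epsilon kinase, which has been described as an oncogene in rodent fibroblasts. Prkce was at 36.2, 38.6 and 41.7 CPM in knockdown and at 36.0, 29.3, 33.1 and 38.7 CPM in wild type. Wild-type library 4 lay within the knockdown range. The means were 38.8 ± 2.78 CPM in knockdown (SD, n = 3) and 34.3 ± 4.04 CPM in wild type (SD, n = 4), and the log2 fold change was 0.18 (SE 0.12).

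The remaining nPKC isoforms were at or near 0. Prkcq encodes the theta kinase of T cells and had 0 reads in all 7 libraries. For Prkcq a count of 0 allows a level of up to 0.0612 CPM over the knockdown libraries together and 0.0449 CPM over the wild-type libraries together, taking 3 of all reads as the limit and counting error alone. Prkch encodes the eta kinase of epithelia and lymphocytes. It had 0, 3 and 2 reads in knockdown and 0, 0, 4 and 0 reads in wild type, which at this depth showed no detectable difference.

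Of the atypical isoforms, Prkci (chr3:30995747-31052959, plus strand) encodes the iota kinase, a partner of the Par polarity proteins that is often amplified in human lung squamous carcinoma. Prkci was at 56.6, 54.5 and 57.4 CPM in knockdown and at 74.0, 70.9, 78.6 and 67.9 CPM in wild type. All knockdown libraries lay below all wild-type libraries, by a smaller proportion than for Prkcb. The mean was 56.2 ± 1.52 CPM in knockdown (SD, n = 3) and 72.9 ± 4.58 CPM in wild type (SD, n = 4), or 77.1% of the wild-type level, with a log2 fold change of -0.37 (SE 0.094). Prkcz, which encodes the zeta kinase (chr4:155260129-155361361, minus strand), passed the low-count filter but had only 5, 24 and 4 reads in knockdown and 13, 22, 0 and 11 reads in wild type. Knockdown library 2 and wild-type library 2 were the highest of their groups, and the groups overlapped throughout. The log2 fold change of Prkcz was -0.18 (SE 0.98), and it was -1.33 without knockdown library 2, so no direction can be given for it.

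**Figure D1:**
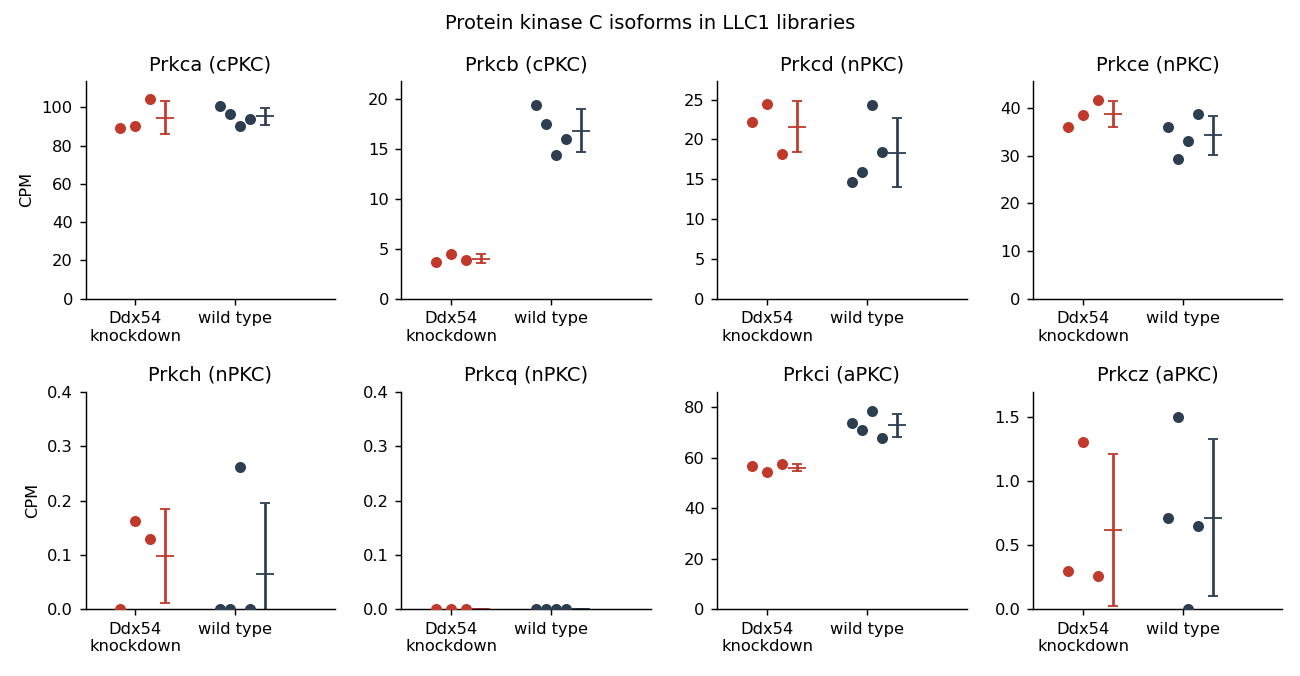
CPM of the 8 PKC isoforms in each library, knockdown (red, left) and wild type (dark, right), with points for libraries and bars for the group mean ± SD, cut at 0; each panel has its own linear axis from 0. Prkcb at 3.64 to 4.50 CPM in knockdown lies below 14.3 to 19.4 CPM in wild type, Prkci is lower without overlap, Prkca, Prkcd and Prkce overlap, and Prkch, Prkcq and Prkcz are near 0.

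Dividing CPM by the length of all annotated exons in kilobases put the isoforms on a scale where genes can be compared with each other. In wild type the order of levels per kilobase was Prkci, at 12.2 to 14.2 CPM per kilobase, then Prkca at 10.0 to 11.2, Prkce at 4.03 to 5.33, Prkcd at 2.63 to 4.40 and Prkcb at 1.87 to 2.53. The ranges of Prkce and Prkcd overlapped, and those of the other neighbours in this order did not. In knockdown Prkca, at 9.90 to 11.6 CPM per kilobase, and Prkci, at 9.82 to 10.3, overlapped, followed by Prkce at 4.98 to 5.74, Prkcd at 3.29 to 4.41 and Prkcb at 0.476 to 0.589. Prkcz stayed at or below 0.206 CPM per kilobase in knockdown and 0.236 in wild type. With coding length in place of exon length Prkca came before Prkci in both groups, at 43.1 to 50.5 against 30.0 to 31.6 CPM per kilobase in knockdown and 43.7 to 48.8 against 37.4 to 43.3 in wild type. On that scale Prkcd and Prkcb overlapped in wild type, so the order of these pairs depends on the length used.

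Summed over the 8 genes, the PKC level was 30.5 ± 0.98 CPM per kilobase in knockdown (SD, n = 3) and 34.1 ± 1.01 in wild type (SD, n = 4), with all knockdown libraries below all wild-type libraries. Prkcb made up 1.71 ± 0.19% of this sum in knockdown and 6.44 ± 0.86% in wild type. Prkci made up 33.2 ± 1.15% in knockdown and 38.5 ± 1.60% in wild type. Both had a smaller share in every knockdown library than in any wild-type library. The share of Prkca was 34.4 ± 2.06% in knockdown and 31.2 ± 1.80% in wild type, and that of Prkce was 17.5 ± 0.69% in knockdown and 13.9 ± 1.61% in wild type, both higher in every knockdown library. Shares of isoforms and classes are parts of the same sum, so each depends on the others. The levels per kilobase of Prkca and of Prkce themselves overlapped between the groups. Prkcd had 12.8 ± 2.13% in knockdown and 9.69 ± 2.12% in wild type, with overlap. By class, the 4 nPKC genes held 30.3 ± 1.69% in knockdown and 23.6 ± 2.53% in wild type, and the 2 conventional genes 36.1 ± 1.95% in knockdown and 37.6 ± 2.63% in wild type. The 2 atypical genes held 33.5 ± 0.97% in knockdown and 38.8 ± 1.52% in wild type. Within the conventional class the ratio of Prkca to Prkcb per kilobase was 20.8, 17.1 and 23.1 in the knockdown libraries and 4.43, 4.71, 5.37 and 5.01 in the wild-type libraries.

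**Figure D2:**
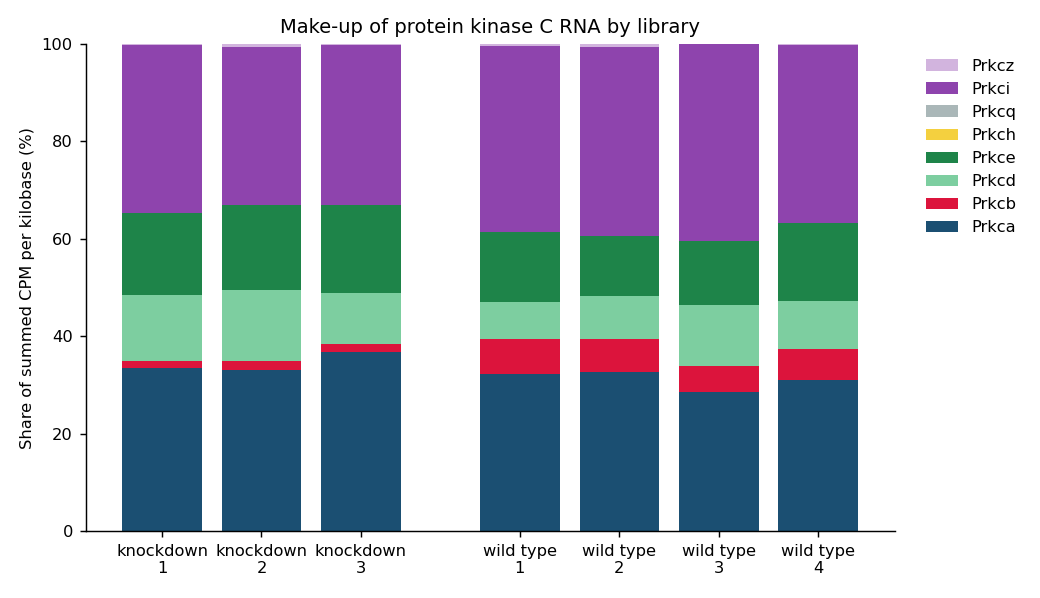
Share of each PKC isoform in the summed CPM per kilobase (%), 1 stacked bar per library, knockdown left of wild type. Prkcb (red) takes 1.59 to 1.94% in the knockdown libraries and 5.33 to 7.28% in the wild-type libraries, while Prkca and Prkci take most of every bar.

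The genes around the kinases were read from 10 lists of 132 genes, of which 107 were tested. The lists came from textbook knowledge but were drawn up with earlier results of these data known, several stress and matrix genes among them, so they are described by counts beside the background. Of the 107 genes 9 rose and 33 fell, or 8.41% and 30.8%, where 14.1% and 15.3% of all tested genes did. The median log2 fold change was -0.17 over the lists. Leaving out the phorbol ester response genes, 9 of 89 rose and 23 fell, with a median of -0.08. Folds and p-values below are from edgeR with adjustment over all tested genes, and CPM values are mean ± SD with n = 3 knockdown and n = 4 wild-type libraries.

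With edgeR 14.1% of all tested genes were higher and 15.3% lower, the background for each list below. With DESeq2 1713 of all tested genes were higher and 1860 lower, and no share of all genes is given for an unadjusted p. Nothing is read from the count of a single list. Among the enzymes that make and remove diacylglycerol, some fell. Of 8 tested phospholipases C 2 fell (25%) and 0 rose with edgeR or limma-voom, while 1 was higher at an unadjusted p under 0.05 and with DESeq2. Plcb3, which answers to G-protein-coupled receptors, fell to 43.0 ± 0.89 CPM in knockdown, against 74.5 ± 6.88 CPM in wild type (log2 fold change -0.80, adjusted p = 1.74e-07). Plcd3 fell to 18.1 ± 0.52 CPM in knockdown, against 29.5 ± 3.01 CPM in wild type (-0.71, adjusted p = 0.000249). Of 7 diacylglycerol kinases and lipases 3 fell (42.9%) and 0 were higher with any of the 3 tools or at an unadjusted p under 0.05. Those that fell were Dgkd (-0.52, adjusted p = 7.8e-06), Dgka (-0.80, adjusted p = 0.0188) and Dagla (-0.45, adjusted p = 0.0236). Dgkd turns diacylglycerol into phosphatidic acid and was at 82.2 ± 8.09 CPM in knockdown and 118 ± 4.63 CPM in wild type. Dgka lost its call without knockdown library 2 or 3 or wild-type library 3, and Dagla without knockdown library 1 or 3 or wild-type library 3. Both also lost it with a replicate block (adjusted p from 0.0506 to 0.16 over these settings).

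Among other proteins that bind diacylglycerol, 4 of 10 were tested and 1 fell (25%). Unc13c, a factor that readies vesicles for release, was at 0.85 ± 0.36 CPM in knockdown and 2.74 ± 1.70 CPM in wild type (-1.69, adjusted p = 0.0402). Its call was lost with limma-voom or a replicate block, without any single knockdown library and without wild-type library 1 or 4 (adjusted p from 0.0532 to 0.218). Chn1, a Rac-inactivating chimaerin, was at 3.68 ± 1.37 CPM in knockdown and 2.31 ± 0.55 CPM in wild type and did not pass (adjusted p = 0.261).

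Of the related kinases, Prkd3, a protein kinase D that PKC phosphorylates, was at 62.0, 81.8 and 78.8 CPM in knockdown and at 85.9, 108, 97.6 and 101 CPM in wild type, and fell without overlap (-0.40, adjusted p = 0.00149). Pkn2, a kinase with a PKC-like catalytic domain, rose to 203 ± 7.55 CPM in knockdown, against 167 ± 11.0 CPM in wild type (0.28, adjusted p = 0.0022). All 14 genes of PKC maturation and dephosphorylation were tested, with 3 higher (21.4%) and 2 lower (14.3%), against 14.1% and 15.3% of all tested genes. Both phosphatases that strip the hydrophobic motif of PKC changed, in opposite directions. Phlpp1 fell to 19.8 ± 1.82 CPM in knockdown, against 31.3 ± 4.74 CPM in wild type (-0.66, adjusted p = 0.000662). Phlpp2 rose to 17.4 ± 1.45 CPM in knockdown, against 11.0 ± 1.26 CPM in wild type (0.66, adjusted p = 0.00563). Mlst8, a subunit of the mTOR complex that primes PKC, rose as well (0.71, adjusted p = 0.000441).

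The list of anchors and polarity partners had all 21 genes tested, with 10 lower (47.6%) and 2 higher (9.52%), and a median of -0.23. Gnb2l1, which encodes the PKC anchor RACK1 of the small ribosomal subunit, fell to 1257 ± 61.9 CPM in knockdown, against 1749 ± 99.0 CPM in wild type (-0.48, adjusted p = 1.19e-07). Gnb2l1, Prkcdbp and Pard3 were singled out after their values were seen, and their calls were read from the main edgeR fit alone. Prkcdbp, which encodes a caveolar protein that binds the delta kinase, fell to 88.1 ± 5.67 CPM in knockdown, against 123 ± 15.5 CPM in wild type (-0.48, adjusted p = 7.32e-05). Pard3, the scaffold on which Prkci acts in cell polarity, fell (-0.29, adjusted p = 0.00188), while its partner gene Pard6g rose to 15.3 ± 0.67 CPM in knockdown, against 8.91 ± 1.19 CPM in wild type (0.78, adjusted p = 0.00238). Akap12, a scaffold of PKC and protein kinase A, rose (1.11, adjusted p = 0.00096). Map2k5, a kinase that binds the atypical isoforms, fell (-0.56, adjusted p = 0.0283), a call lost without any single knockdown library or without wild-type library 1 or 3 (adjusted p from 0.058 to 0.113).

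Of 11 tested PKC substrates 1 rose (9.09%) and 2 fell (18.2%), against 14.1% and 15.3% of all tested genes. Marcksl1, a relative of MARCKS that binds actin, rose to 39.0 ± 1.16 CPM in knockdown, against 28.1 ± 2.08 CPM in wild type (0.48, adjusted p = 0.00313). Add2, the beta adducin of the membrane skeleton, was at 2.57, 1.41 and 1.17 CPM in knockdown and at 5.61, 5.91, 7.06 and 8.17 CPM in wild type. All knockdown libraries lay below all wild-type libraries, and Add2 fell (-1.96, adjusted p = 6.34e-05). Gap43, a growth cone protein, was at a low level, 0.43 ± 0.091 CPM in knockdown and 1.82 ± 1.06 CPM in wild type (-2.05, adjusted p = 0.0415). Its call was lost with no low-count filter, with limma-voom and with a replicate block. It was also lost without any single knockdown library and without wild-type library 2 or 4 (adjusted p from 0.0562 to 0.17 over these settings).

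Among kinases of the Raf, MEK and ERK cascade, 8 of 10 did not pass, where 29.4% of all tested genes passed. Mapk3, which encodes ERK1, fell to 92.5 ± 6.21 CPM in knockdown, against 131 ± 13.1 CPM in wild type (-0.51, adjusted p = 1.41e-05), and Map2k2, which encodes MEK2, rose (0.27, adjusted p = 0.00542). PKC activates NF-kB in lymphocytes through the branch of CARD proteins, Bcl10 and Malt1. There 1 of 9 tested genes rose (11.1%) and 0 fell with edgeR or limma-voom. At an unadjusted p under 0.05 and with DESeq2, 2 were lower. Chuk, an IkB kinase, rose (0.36, adjusted p = 0.0419), and its call was lost with DESeq2, without any single knockdown library and without wild-type library 1, 2 or 4 (adjusted p from 0.0514 to 0.156). Tab2, an adaptor of the kinase Map3k7, was at 193 ± 8.39 CPM in knockdown and 218 ± 12.4 CPM in wild type (adjusted p = 0.0529), and passed without wild-type library 2 (adjusted p = 0.0155), with DESeq2 (adjusted p = 0.0404) and in 2 other settings (adjusted p = 0.0425 and 0.0453).

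The phorbol ester response genes had 10 of 18 tested members lower with edgeR (55.6%), and 9 with DESeq2 and with limma-voom. Their median was -0.28, and 0 were higher with edgeR, DESeq2 or limma-voom or at an unadjusted p under 0.05. Mmp3, which encodes a stromelysin, a matrix metalloproteinase, was at 46.0, 41.7 and 38.3 CPM in knockdown and at 144, 143, 149 and 142 CPM in wild type (-1.78, adjusted p = 4.99e-17). Mmp13 (-1.61, adjusted p = 1.98e-06) and Ptgs2, the inducible cyclooxygenase (-1.34, adjusted p = 4.28e-07), fell too. Of the 10 that fell, Mmp3, Mmp13, Ptgs2, Egr1 and Junb were known to be lower when the list was drawn up. Jun and Junb are subunits of the AP-1 factor through which phorbol esters act. Both fell, with a log2 fold change of -0.22 for Jun (adjusted p = 0.0114) and -0.75 for Junb (adjusted p = 1.62e-07). Jund fell too (-0.33, adjusted p = 0.0142). Fos, Fosb, Fosl1 and Fosl2, the other AP-1 genes of the list, did not pass (adjusted p from 0.136 to 0.672). All of these AP-1 genes were singled out after their values were seen, and their calls were read from the main edgeR fit alone. Many other signals induce the genes of this list, and their levels do not measure kinase activity.

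**Figure D3:**
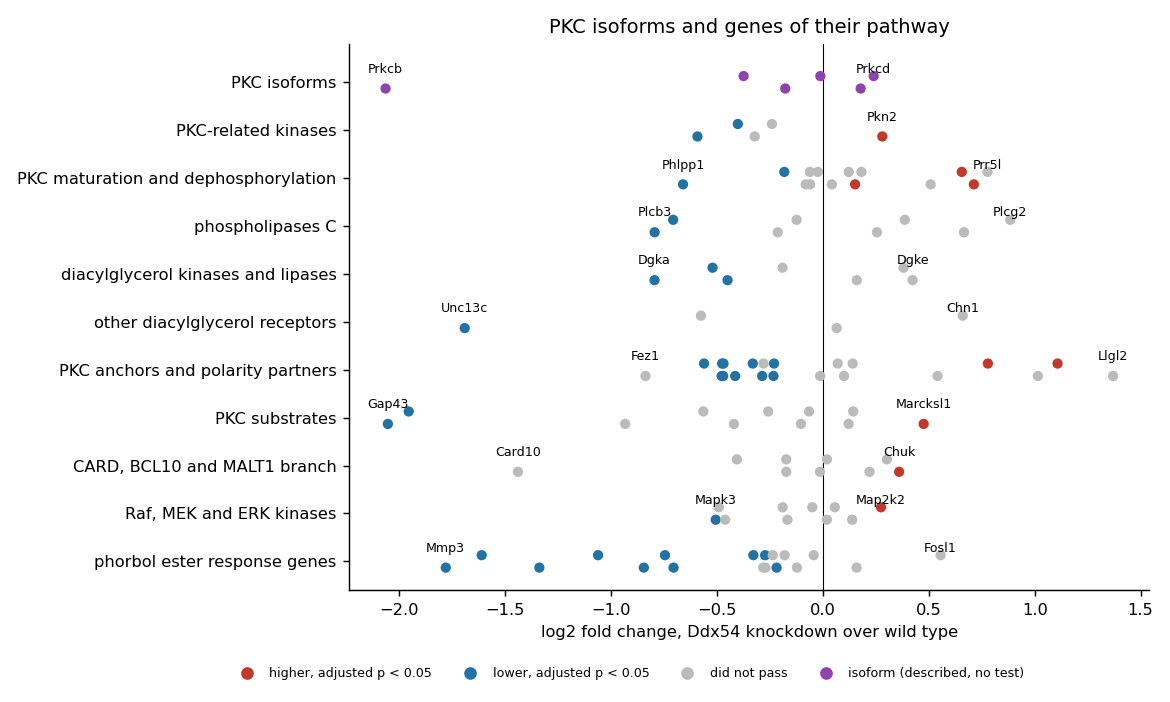
log2 fold change, Ddx54 knockdown over wild type, of the 6 tested PKC isoforms (purple, described without a test) and of the 107 tested pathway genes by list, with colour for genes past an adjusted p of 0.05 (edgeR); the lowest and highest gene are named for most lists. Prkcb at -2.07 lies below the other isoforms at -0.37 to 0.24, among them Prkcz at -0.18 with an SE of 0.98. The anchor and phorbol ester lists hold 10 each of the 33 genes that fell.

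Genes whose profile over the 7 libraries was most like that of an isoform were ranked by the root mean square difference of log2(CPM + 0.5) after centring each gene. For Prkcb the 5 nearest of 7835 candidates were Nupr1 (difference 0.12), Ddit3 (0.13), Crabp1 (0.14), Glrp1 (0.15) and Enpp2 (0.17), in log2 units. Nupr1 and Ddit3 encode factors of the integrated stress response, Crabp1 a retinoic acid-binding protein and Enpp2 the secreted lipase autotaxin. Nupr1 averaged 14.4 ± 1.30 CPM in knockdown (SD, n = 3) and 50.9 ± 4.39 CPM in wild type (SD, n = 4), and Enpp2 averaged 19.8 ± 1.30 CPM in knockdown and 69.6 ± 3.61 CPM in wild type. The measure picks genes with a like difference between the groups, so those differences are no separate result.

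For Prkcd, the tested isoform with the highest fold change, the nearest were Metap1d (0.086), Glis2 (0.089), Mon1b (0.10), Mtmr4 (0.11) and Zdhhc4 (0.12). Like Prkcd, each of these was higher in wild-type library 3 than in the other wild-type libraries. The ranking picks genes with such a profile, so the shared peak is no separate result. Metap1d averaged 13.6 ± 1.96 CPM in knockdown and 10.9 ± 2.74 CPM in wild type, and Mtmr4 averaged 76.1 ± 7.50 CPM in knockdown and 63.1 ± 10.1 CPM in wild type. Such likeness was described over 7 libraries of 2 groups and carries no p-value.

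**Figure D4:**
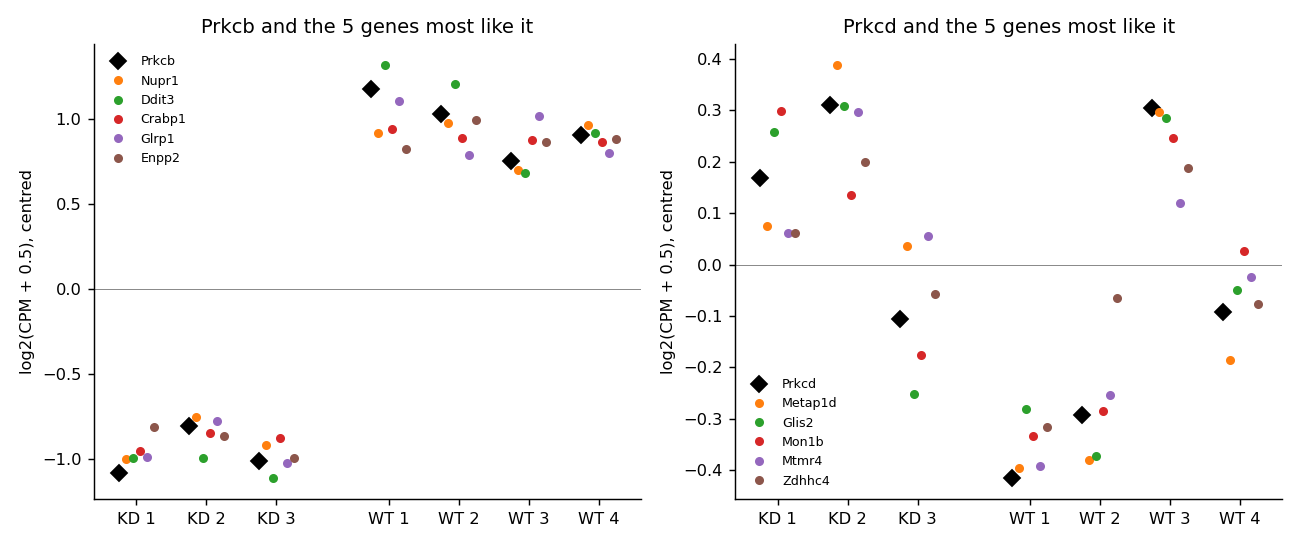
Centred log2(CPM + 0.5) by library, knockdown (KD) left of wild type (WT), for Prkcb (left panel) and Prkcd (right panel) as black diamonds and the 5 genes most like each as coloured points. Prkcb and its 5 genes lie between -1.12 and -0.76 in knockdown and between 0.68 and 1.32 in wild type, while Prkcd and its genes are highest among the wild-type libraries in library 3.

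No tested gene beside Prkcb was lower by as much as Prkcb. Since Prkcb had the lowest log2 fold change of the isoforms, that difference is no separate result. Within 500 kb of the gene 15 others were in the table and 11 were tested, of which 3 rose and 1 fell, all named after their values were seen. Of all tested genes 14.1% rose and 15.3% fell, and nothing is read from the count of so few neighbours. Plk1, the mitotic polo-like kinase, rose to 337 ± 5.26 CPM in knockdown, against 220 ± 4.16 CPM in wild type (0.62, adjusted p = 1.63e-09). Rbbp6 (0.40, adjusted p = 1.23e-05) and Tnrc6a (0.20, adjusted p = 0.045) also rose, and Ears2, a mitochondrial glutamyl-tRNA synthetase, fell (-0.48, adjusted p = 0.0489). Tnrc6a lost its call without any single knockdown library or without wild-type library 1, 2 or 3, and also with upper-quartile factors and with DESeq2. Ears2 lost its call without any single knockdown library or without wild-type library 1 or 4, and also with no low-count filter and with a replicate block. In those settings their adjusted p was 0.0514 to 0.271.

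**Figure D5:**
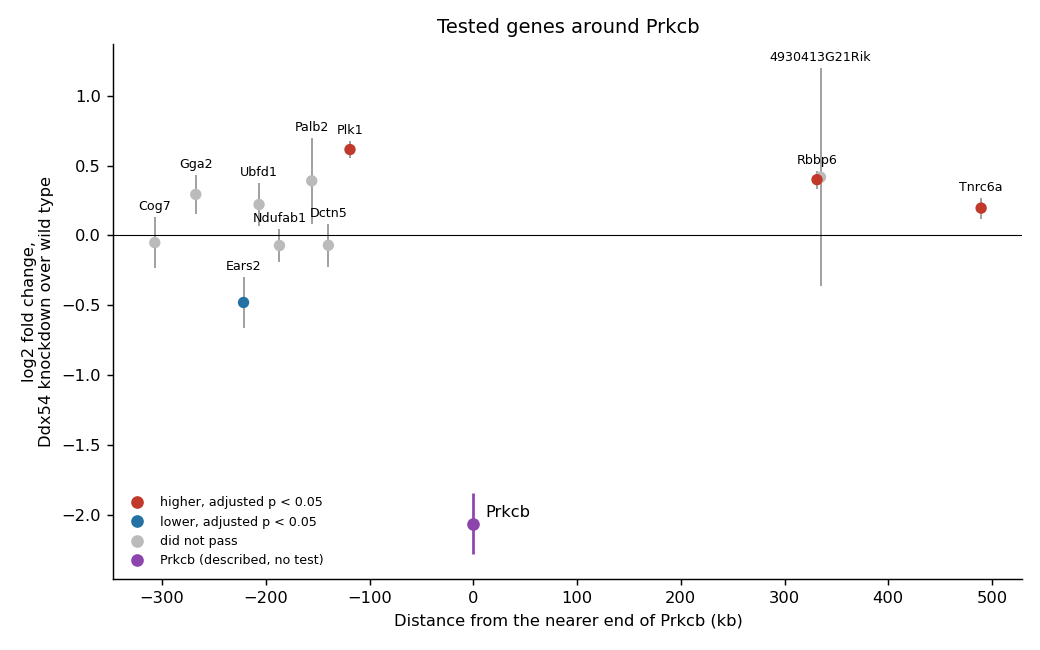
log2 fold change with its SE, Ddx54 knockdown over wild type, of Prkcb (purple) and the 11 tested genes within 500 kb, against the distance in kilobases from the nearer end of Prkcb. The neighbours lie between -0.48 and 0.62, with Plk1 highest, and Prkcb lies at -2.07.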

How the data were processed

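Polyadenylated RNA of 7 LLC1 libraries was analysed, from raw read counts per gene that the authors deposited in a single table with 0 columns of other samples. Trimmomatic, STAR, HTSeq and the build mm10 are named, without roles or versions, per the submitters' processing notes, and no source used here states the annotation, the strand setting or the treatment of multiply mapping reads. Reads of overlapping genes on opposite strands thus cannot be told apart.

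Counts were fitted with edgeR 4.0.16 in R 4.3.3 (filterByExpr, TMM factors, robust quasi-likelihood test of knockdown against wild type without covariates). P-values were adjusted by Benjamini-Hochberg over 11594 genes, with a threshold of 0.05. SE values of log2 fold changes were derived from the F statistic of each gene. CPM used TMM-scaled library sizes over tested genes. The script was tested on simulated data. Exon and coding lengths came from GENCODE M21 (GRCm38), matched by symbol for 96.2% of tested genes.

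Isoforms and pathway lists were chosen with earlier results of these data known, among them lower Mmp3, Mmp13, Ptgs2, Egr1 and Junb. Named genes were the isoforms, Ddx54, up to 3 called genes per list with a mean of at least 1 CPM and the largest fold change (or the 2 of smallest p, if under 2 qualified), and the 5 genes most like the lowest and the highest isoform, with a mean of at least 10 CPM. Others are marked where named. Some results are not reported here. Alternatives were scaling by upper-quartile or RLE factors, testing without a low-count filter, at least 50 counts in 3 libraries, DESeq2 1.42.0, limma-voom 3.58.1, a replicate block, coding length, and leaving out each library.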

Additional observations from a re-analysis of the deposited data

Results flagged for a closer look

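In the wild-type group, 57 quantities were searched for a library far from the other 3, and 4 were found, where chance gives about 1 in 20, or 2.85. Prkch was at 0.261 CPM in wild-type library 3, from 4 reads, and at 0 in the others, and its share of the summed PKC level there was 0.0990%, against 0. With 0 in the others, any read sets that library apart, and the share rests on the same reads. The chance figure does not hold for these entries, so nothing is read from the comparison with it. Mapk3 was at 151 CPM in wild-type library 1, against 123 to 127 CPM in the others. Mmp13 was at 18.4 CPM in wild-type library 3, against 12.4 to 13.4 CPM in the others. Mapk3 and Mmp13 kept direction and call under all 14 alternatives, with log2 fold changes of -0.56 to -0.44 and -1.77 to -1.45.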

How the results depend on the processing

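Under the 14 alternatives to the fit, all tested genes numbered 1222 to 1716 higher and 1409 to 1860 lower. The log2 fold change was -2.16 to -1.99 for Prkcb, -0.41 to -0.34 for Prkci, -0.09 to 0.03 for Prkca, 0.14 to 0.40 for Prkcd and 0.11 to 0.24 for Prkce. For Prkcz it was -1.33 to 0.44 under 13 of them, since it was not tested with at least 50 counts in 3 libraries. Pathway genes numbered 7 to 9 higher and 23 to 34 lower. Ddx54 stayed between -0.93 and -0.83. With coding length the mean shares moved to 43.1% in knockdown and 39.1% in wild type for Prkca, 9.24% in knockdown and 7.02% in wild type for Prkcd, and 29.2% in knockdown and 33.9% in wild type for Prkci, and to 16.3% in knockdown for Prkce, by construction of the length used. The replicate numbers did not pair the libraries. Deviations of same-numbered libraries from their group means correlated at -0.034, -0.027 and -0.006, and 0 of 3 knockdown libraries correlated best with their own number. With the replicate block 1375 genes were higher and 1487 lower, and 9 pathway genes higher and 23 lower. Counts of a few reads, as for Prkch and Prkcz, limit any statement on those genes.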

Other observations

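Genes within 500 kb of the other tested isoforms were counted in the same way. Of all tested genes 14.1% were higher and 15.3% lower in knockdown, and nothing is read from counts of so few neighbours. Around Prkci, which was lower in knockdown, 5 genes were tested, Mecom, Mynn, Phc3, Sec62 and Skil, named after their values were seen, and 0 passed the threshold in either direction with edgeR, DESeq2 or limma-voom, with 0 at an unadjusted p under 0.05. Phc3, a Polycomb subunit, averaged 61.5 CPM in knockdown and 61.2 CPM in wild type, and Skil, a repressor of TGF-beta signalling, 15.1 CPM in knockdown and 14.2 CPM in wild type. Around Prkcd 11 genes were tested, with 4 higher and 2 lower, and around Prkca 5, with 1 higher and 2 lower. Around Prkce 5 genes were tested and 1 was lower, and around Prkcz 23, with 2 higher and 4 lower.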
